A study of Mus musculus with 8 samples.

Results

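The comparison set the 2 arrays titled as cytochalasin D against the 2 titled as control, 4 of the 8 arrays in the series, and covered every gene these arrays could measure. The cells were B16, an established line of pigmented mouse melanoma cells, grown in a high-glucose medium with 5% fetal bovine serum that all groups shared. The series held 4 groups of 2 biological replicates, and its other arrays came from cells given the secreted guidance protein SEMA3E for 2 h or 8 h. The cytochalasin D cells were labelled 8 h, and the labels give no dose. The controls were labelled 0 h and described as a non-targeted control, so treatment and time in culture cannot be told apart in this comparison, and the SEMA3E 8 h arrays were the only others at the same labelled time. Each group came from 1 cell line, and nothing in the labels says what the replicates shared beyond being called biological.

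Actin exists in cells as free monomers and as filaments, and cytochalasin D caps the growing ends of filaments and binds monomers. The coactivators MRTF-A and MRTF-B are held inactive by free actin monomers, and cytochalasin D is known from other cells to release them. With the transcription factor SRF they then drive genes for actin and for proteins that bind actin, through a short promoter element called the CArG box. In pigment cells the same filaments carry the myosin motor that holds melanosomes, the pigment granules, near the cell edge.

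Levels are log2 signals relative to the 75th percentile of the array they come from, taken over those probes that all 8 arrays marked well above background, so that a level of 0 is that percentile and a difference of 1 is 2-fold. In all, 18073 genes or transcripts were tested, 12024 of them under a proper gene symbol, and 15920 were well above background on all 4 arrays. All 8 melanocyte markers, among them Mitf, Tyr, Dct and Pmel, were above background on all 4 arrays. Of 34 marker genes of other cell types, 19 were above background on 0 of 4 arrays, among them Cd14, Lyz2, Cdh5, Epcam and Col3a1, and 8 on 1 to 3. The other 7, namely Col1a1, Col1a2, Cd68, Csf1r, Pecam1, Kdr and Cd3e, were above background on all 4 arrays, at levels from -6.83 to -3.43. The log2 summed level of the 34 was -1.59 and -1.37 in control and -1.42 and -1.44 with cytochalasin D. On the control arrays 45.1% and 44.7% of spots were above background, against 42.3% and 40.0% on the cytochalasin D arrays. The 75th percentile of the processed signal was 129 and 132 on the controls and 111 and 66.8 with cytochalasin D. All arrays lay on 1 slide with the replicates of a group in neighbouring positions, so position and group cannot be told apart.

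No gene passed the test of cytochalasin D at 8 h against control. With limma, 0 of 18073 genes (0.0%) passed an adjusted p of 0.05, and 441 (2.44%) reached an unadjusted p of 0.05, where 903.7 would be expected with no differences. Of these 131 were higher with cytochalasin D (0.725% of genes) and 310 lower (1.72%), and 263 were above background on all 4 arrays (1.65% of 15920, 90 higher or 0.565% and 173 lower or 1.09%). That split of 29.7% higher was 41.2% with quantile normalization (128 higher, 183 lower), 11.3% when each array was centred on its median over every probe, called median centring here (26 and 204), and 43.2% with normexp background correction and quantile normalization (231 and 304). With normexp alone it was 68.5% (447 and 206). Leaving out an array moved the count of 441 to 206 (control replicate 1), 2050 (control replicate 2), 1194 (cytochalasin D replicate 1) or 166 (cytochalasin D replicate 2).

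Replicate arrays of a group differed about as widely as arrays of different groups. Across the genes above background on all 4 arrays, the control arrays differed from each other by over 2-fold in 13.0% of genes and the cytochalasin D arrays in 5.68%. Control replicate 2 and cytochalasin D replicate 1, which belong to different groups, differed by over 2-fold in 0.817% and had a median absolute difference of 0.16, against 0.37 between the controls and 0.33 between the cytochalasin D arrays. The other pairs across groups differed by over 2-fold in 11.6% and 13.9% of genes (control replicate 1 with each treated array) and in 6.90% (control replicate 2 with cytochalasin D replicate 2). The group means, which average 2 arrays each, differed by over 2-fold in 2.04%. Control replicate 2 lay nearer to a treated array than to its own replicate, and over all genes tested its correlation was 0.993 with cytochalasin D replicate 1 and 0.974 with control replicate 1, with genes not being independent replicates. Whether tubes or labels were exchanged was not tested, and every difference given here takes the labels as they stand.

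**Figure D1:**
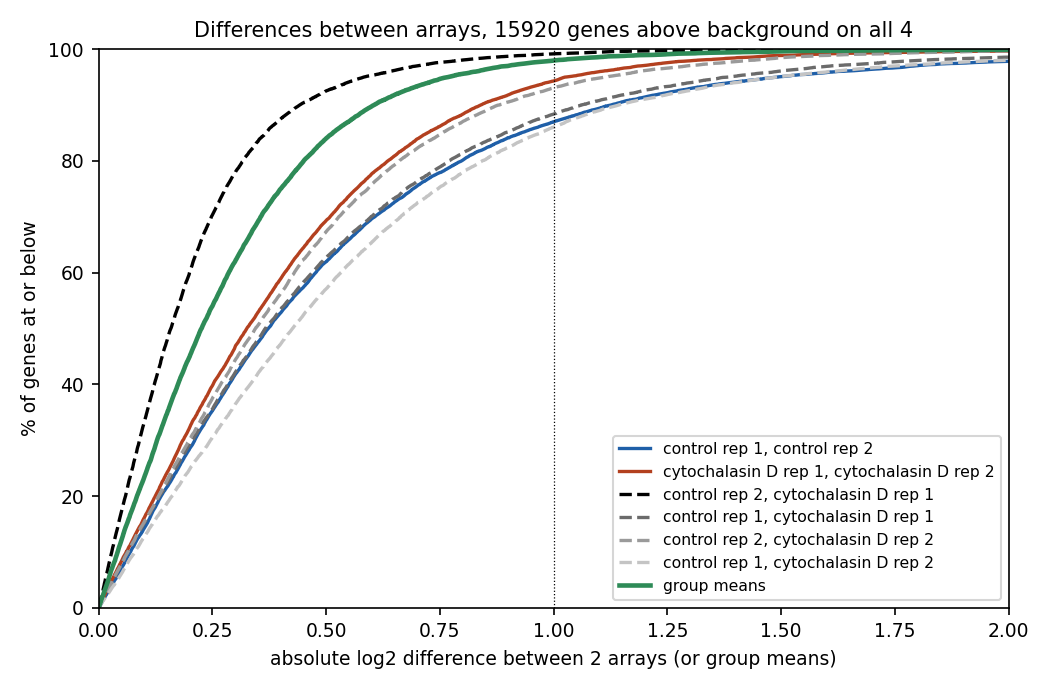
Cumulative share of the 15920 genes above background on all 4 arrays (y axis, percent) by the absolute log2 difference (x axis) for the 6 pairs of arrays and for the 2 group means. Solid thin lines are replicate pairs and dashed lines are pairs across groups. The curve of control replicate 2 with cytochalasin D replicate 1 lies to the left of all others, and at a difference of 1 the controls still have 13.0% of genes beyond it.

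Both cytochalasin D arrays lay on the same side of both controls in 5221 of 18073 genes (28.9%), 2868 higher (15.9%) and 2353 lower (13.0%). Of these separated genes 458 (2.53% of all) were at least 2-fold apart, 144 higher (0.797%) and 314 lower (1.74%). The direction of that split depended on the background filter. With no filter, 1947 of the 34852 genes then tested were higher and 495 lower. Among the genes above background on all 4 arrays, the groups were separated in 4478 of 15920 (28.1%; 16.5% higher, 11.6% lower), and in 195 (1.22%) also at least 2-fold apart, 65 higher (0.408%) and 130 lower (0.817%). Of the genes with a symbol among them, 0 higher and 2 lower had a gap over 1 log2 unit between the nearest arrays of the groups, namely Rpe and Dip2b. With 2 arrays against 2, an exact permutation test of a single gene cannot go below p = 0.333, so these counts describe the arrays and test nothing.

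Of the genes above background on all 4 arrays with separated groups, the 12 higher ones with the smallest p held Ptgs1, Plcb3, Cavin1, Sik1 and the growth hormone receptor gene Ghr. Ptgs1, which encodes the constitutive cyclooxygenase of prostaglandin synthesis, read -6.35 and -5.46 in control and -4.90 and -4.67 with cytochalasin D, a difference of 1.12 ± 0.34 (limma SE, n = 2 per group). Plcb3, a phospholipase C that acts downstream of G-protein-coupled receptors, read -0.64 and 0.09 in control and 0.52 and 1.09 with cytochalasin D, a difference of 1.08 ± 0.33. Cavin1, which forms the coat of caveolae, read 0.39 and 0.96 against 1.42 and 1.67, a difference of 0.87 ± 0.28. In Ptgs1, Plcb3 and Cavin1 control replicate 1 was the lowest array and cytochalasin D replicate 2 the highest.

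The kinase gene Sik1 had the largest difference of this set and the widest spread. It read -5.26 and -3.47 in control and -3.21 and -1.59 with cytochalasin D, a difference of 1.96 ± 0.69, and control replicate 2 and cytochalasin D replicate 1 were 0.26 apart. Its difference was 1.07 without control replicate 1 and 2.86 without control replicate 2. Ghr read -3.16 and -3.30 against -2.56 and -2.38, a difference of 0.76 ± 0.26, and its other probe lay in the opposite direction at -0.78 ± 0.46. The cell-surface protein genes Cd248 and Cadm4 differed by 0.95 ± 0.29 and 0.86 ± 0.29, and the potassium channel gene Kcnh2 by 0.98 ± 0.32. The dim probes of Guca2a, Spata21 and Tepp differed by 0.88, 0.92 and 0.95. The other probe of Spata21, above background on 3 of the 4 arrays, differed by 0.05 ± 0.40. Slc16a11 and Cep295nl, named for the gap between their groups, differed by 0.90 ± 0.43 and 0.64 ± 0.29. Their probes and that of Kcnh2 were dim as well, at -7.71, -7.47 and -7.45 on control replicate 1. All of these higher genes had an adjusted p of 1.0 by limma.

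The 12 lower genes with the smallest p held H1f4, Mlycd, Prkaa2, Rev1 and others, and Rpe and Casc3 were added for their gap. H1f4, a linker histone gene, read -1.67 and -2.22 in control and -3.68 and -3.11 with cytochalasin D, a difference of -1.46 ± 0.34. Rpe, which encodes an epimerase of the pentose phosphate pathway, read -1.25 and -2.70 against -4.07 and -3.92, a difference of -2.02 ± 0.72. Control replicate 1 was the highest array by far, and the difference was -1.29 without it and -2.75 without control replicate 2. Mlycd, malonyl-CoA decarboxylase, read -3.34 and -4.55 against -5.26 and -5.58, a difference of -1.47 ± 0.46. Prkaa2, a catalytic subunit of the energy sensor AMPK, read -4.13 and -4.88 against -5.52 and -5.69, a difference of -1.10 ± 0.33. In both enzymes control replicate 1 was again the highest array and control replicate 2 lay between it and the treated arrays.

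Rev1, a DNA polymerase that copies past damaged bases, was the most even of them. It read -4.45 and -4.50 in control and -5.37 and -5.50 with cytochalasin D, a difference of -0.96 ± 0.29, with both groups narrower than their separation. Zfp534, a zinc finger gene, read -3.82 and -3.87 against -4.69 and -5.60, a difference of -1.30 ± 0.34. Casc3, a core protein of the exon junction complex, read -0.88 and -1.53 against -2.59 and -2.45, a difference of -1.31 ± 0.43. Pigg, of GPI anchor synthesis, differed by -1.47 ± 0.39, and the enzyme gene Pafah1b3 by -1.23 ± 0.33. Dip2b and Dnase1l1 differed by -1.70 ± 0.40 and -1.61 ± 0.47, but their other probes above background differed by -0.05 ± 0.64 and 0.15 ± 0.37. The kinase gene Dyrk2 differed by -1.51 ± 0.41 and by -0.14 ± 0.41 on its other probe. The mitochondrially encoded CYTB differed by -1.01 ± 0.30. All of them had an adjusted p of 1.0 by limma.

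**Figure D2:**
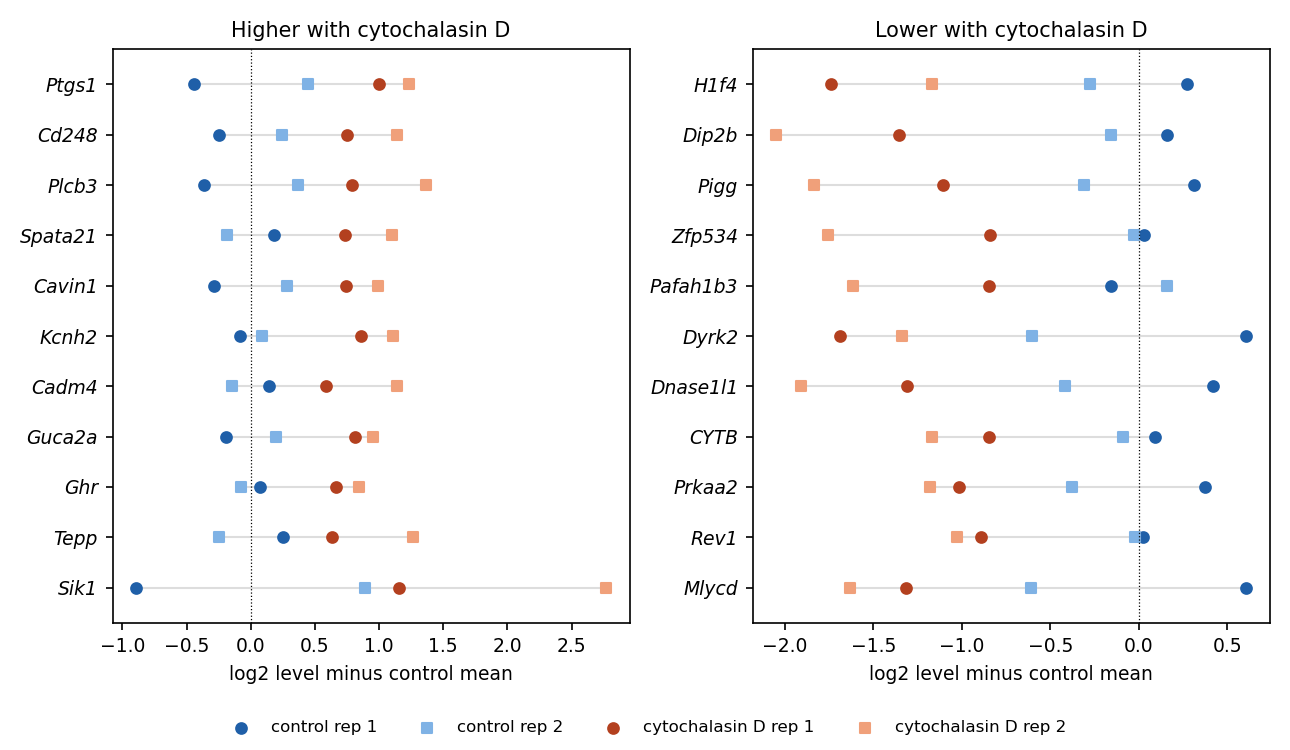
Level on each of the 4 arrays minus the mean of the 2 controls (x axis, log2) for 11 of the 12 higher and 11 of the 12 lower genes with the smallest p among genes above background on all 4 arrays whose groups did not overlap. Circles are replicate 1 and squares replicate 2, blue for control and red for cytochalasin D. The rule made the groups separate, and the spread within a group is often as wide as the step to the other group, as for Sik1 and Mlycd.

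Different probes of a gene gave one more view of the same RNA. Of 3889 genes with at least 2 probes above background on all 4 arrays, the 2 brightest probes differed in the same direction in 62.6%. Where the brightest probe had separated groups, 824 of 1151 (71.6%) had a second probe in the same direction, and in 294 the second probe was also separated the same way. For differences of at least 2-fold, 31 of 44 had the same direction and 13 were separated on both probes. Of 35 genes named by rule that had another probe above background on all 4 arrays, 14 had at least 1 such probe in the opposite direction. Of 148 named genes, 111 turned sign or had a difference over 1.5 times smaller with at least 1 of the 4 arrays left out, 66 of them when it was control replicate 1 and 60 when it was cytochalasin D replicate 2, with some genes in both counts.

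The 4 actin genes tested, of the family that codes for the drug's target, each differed by less than 1 standard error. Actb, cytoplasmic beta-actin, read 4.82 and 4.62 in control and 4.88 and 4.99 with cytochalasin D, a difference of 0.22 ± 0.24. Actg1, cytoplasmic gamma-actin, read 3.16 and 3.07 against 3.09 and 3.41, a difference of 0.13 ± 0.25, and lay at -0.03 without cytochalasin D replicate 2 and at -0.05 with median centring. The muscle actins Acta2 and Actg2, near background, differed by -0.13 ± 0.29 and -0.09 ± 0.28, both turning positive after normexp. The other 2 actin genes, Acta1 and Actc1, were on the array but not bright enough to be tested.

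SRF and MRTF act through the CArG box, and its 10 matches in promoters of the 8 tested target genes that hold one are shown with the levels of those genes in view. The windows are 30 bases, from RefSeq (build GRCm38.p6), with the box in capitals.
Actg1, chr11:120348566-120348595, minus strand: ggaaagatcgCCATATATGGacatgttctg
Srf, chr17:46556225-46556254, minus strand: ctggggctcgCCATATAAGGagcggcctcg
Srf, chr17:46556205-46556234, minus strand: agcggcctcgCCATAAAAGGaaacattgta
Vcl, chr14:20929161-20929190, plus strand: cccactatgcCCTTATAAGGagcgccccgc
Cnn2, chr10:79988534-79988563, plus strand: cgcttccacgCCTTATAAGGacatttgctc
Myl9, chr2:156775293-156775322, plus strand: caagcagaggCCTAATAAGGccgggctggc
Lima1, chr15:99820177-99820206, minus strand: ctcactttgtCCTTATAAGGctatcctgtt
Filip1l, chr16:57549170-57549199, plus strand: atgccgcgcgCCTTATAAGGctgagcggtg
Fhl2, chr1:43196838-43196867, minus strand: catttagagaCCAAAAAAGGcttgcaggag
Fhl2, chr1:43163973-43164002, minus strand: gcgcgtgtgtCCTTATATGGtcaaatgact

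The box was searched on both strands in windows from 250 bases before to 50 after each start site. It was found in 11 of the 29 listed SRF-MRTF targets with a window (37.9%) and in 488 of 27025 genes overall (1.81%). The 2 windows of Srf overlap in their flanks and the boxes do not. The 8 tested targets with a box had a median difference of 0.10 and the 17 without one 0.19. Of the genes shown, Cnn2, a calponin, differed by 0.24 ± 0.35, Lima1, an actin bundler, by 0.40 ± 0.73, Filip1l by 0.01 ± 0.55 and Fhl2, a LIM-domain protein, by -0.25 ± 0.31.

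Among the factors of the pathway, Srf itself read -1.04 and -1.26 in control and -1.23 and -1.17 with cytochalasin D, a difference of -0.05 ± 0.62, with a second probe at 0.34 ± 0.28. Mrtfb, the gene of MRTF-B, differed by 0.40 ± 0.29 with overlapping groups, and by -0.40 ± 0.43 on its other probe. Limk1, the kinase that inactivates the filament-severing protein cofilin, was the most evenly separated. It read -0.75 and -0.68 in control against -0.20 and -0.17, a difference of 0.53 ± 0.24 that lay between 0.49 and 0.57 with any 1 of the 4 arrays left out (adjusted p = 1.0 by limma). Its relative Limk2 differed by -0.39 ± 0.50 and the kinase gene Rock1 by -0.21 ± 0.25. Of the 19 factors tested, 0 passed, 12 lay above 0 and 1 was separated higher and 3 lower (53.4%, 15.9% and 13.0% over all genes).

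Of 28 SRF-MRTF cytoskeletal targets tested, 0 passed, 20 lay above 0 with a median of 0.16, and 8 were separated higher and 1 lower, beside 53.4% above 0, a median of 0.03 and 15.9% and 13.0% separated over all genes. The list's median lay at -0.02 with median centring, where that of all genes lay at -0.15. Myh9, the heavy chain of non-muscle myosin IIA, read 0.75 and 2.44 in control and 2.63 and 2.64 with cytochalasin D. Its difference was 1.04 ± 0.50, and 0.19 without control replicate 1. The tropomyosin gene Tpm2 read -7.46 and -6.44 against -6.24 and -5.82, a difference of 0.92 ± 0.52. In both, control replicate 1 was far below the other 3 arrays and control replicate 2 lay close to the treated ones.

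The filamin gene Flna, which crosslinks filaments, was higher on both treated arrays by small steps, at 3.09 and 3.37 against 3.45 and 3.85, a difference of 0.42 ± 0.27. Tagln, the smooth-muscle actin binder transgelin, read -2.30 and -2.49 against -2.25 and -2.16, a difference of 0.19 ± 0.25. Vcl, the adhesion protein vinculin, read -3.33 and -2.25 against -2.61 and -2.84, so that the treated arrays lay between the controls, at 0.06 ± 0.38. The myosin light chain gene Myl9 differed by 0.18 ± 0.25, the tropomyosin gene Tpm1 by 0.26 ± 0.45 and the integrin gene Itga5 by 0.76 ± 0.51, each with overlapping groups. Cald1, caldesmon, was the member separated lower, at -0.48 ± 0.29.

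**Figure D3:**
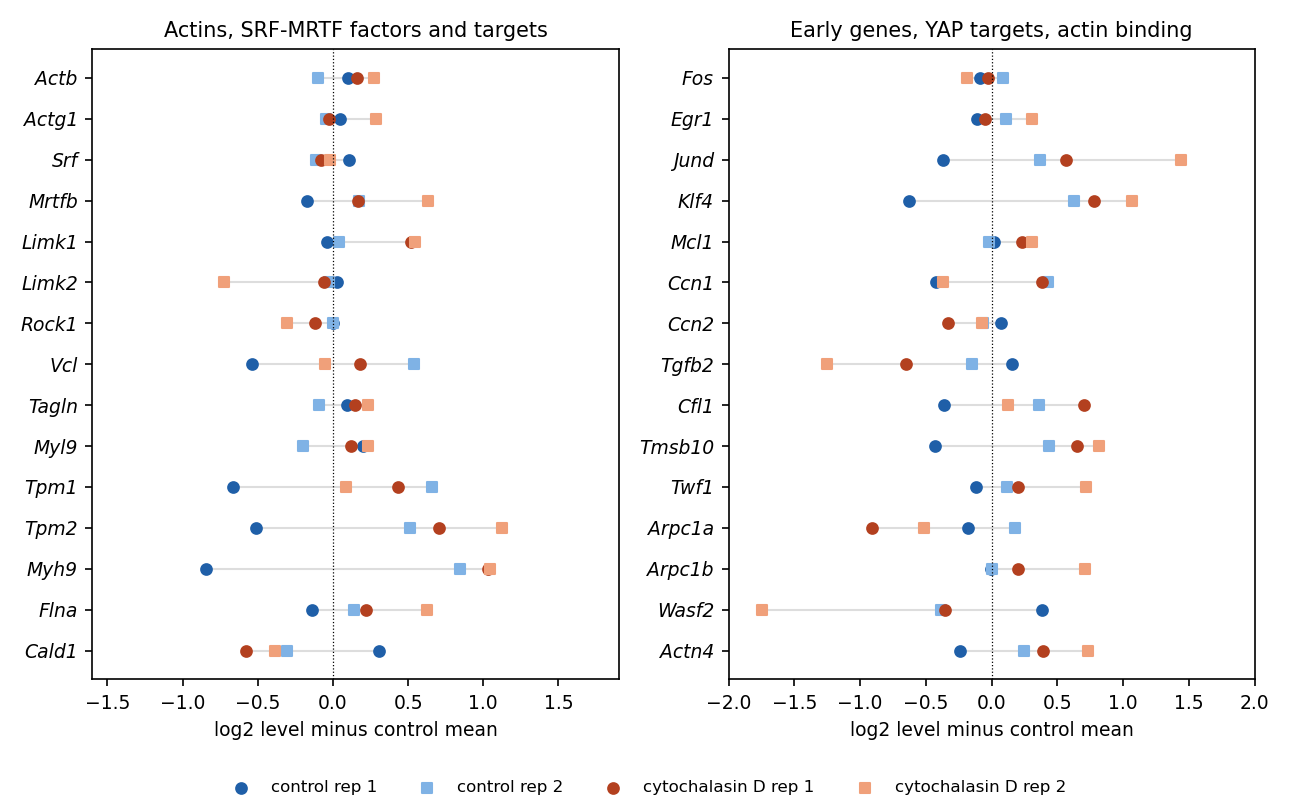
Level on each of the 4 arrays minus the mean of the 2 controls (x axis, log2) for actin genes, SRF-MRTF factors and targets (left) and early response genes, YAP targets and actin-binding genes (right). Circles are replicate 1 and squares replicate 2, blue for control and red for cytochalasin D. Limk1 has both treated arrays above both controls in 2 tight pairs, whereas in Myh9 and Tpm1 control replicate 1 lies apart, with control replicate 2 just below both treated arrays in Myh9 and above both in Tpm1.

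SRF also drives some immediate early genes with its TCF partners. The list of these and other immediate early genes had 16 of 20 tested members above 0, a median of 0.25 and 0 that passed. Of them 5 were separated higher and 2 lower. Over all genes 53.4% lay above 0, and 15.9% and 13.0% were separated higher and lower. On the SEMA3E 8 h arrays the list's median against the same controls was also 0.25. Jund, a component of the AP-1 transcription factor, read 1.15 and 1.89 in control and 2.08 and 2.96 with cytochalasin D, a difference of 1.0 ± 0.45. Klf4 read -4.22 and -2.97 against -2.81 and -2.52, a difference of 0.92 ± 0.66, and 0.30 without control replicate 1. Ier2 read -7.91 and -4.33 in control and -4.41 and -4.05 with cytochalasin D, so its difference of 1.89 ± 1.19 was 0.10 without control replicate 1. Mcl1, an inhibitor of cell death, was separated by a small step at 0.27 ± 0.24. Fos and Egr1, the usual reporters of the class, differed by -0.11 ± 0.35 and 0.13 ± 1.51 with overlapping groups. Egr1 read -6.20 and -5.98 in control and -6.14 and -5.79 with cytochalasin D, so its wide SE does not describe these 4 arrays.

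Of the proteins that bind monomers or turn filaments over, 16 of 23 genes lay above 0 (53.4% over all genes). The median was 0.18 and 0 passed. Tmsb10, thymosin beta-10, which holds monomers, read 1.38 and 2.25 in control and 2.46 and 2.63 with cytochalasin D, a difference of 0.73 ± 0.34. Twf1, the monomer binder twinfilin, read 1.91 and 2.14 against 2.23 and 2.74, a difference of 0.46 ± 0.28. Cfl1, cofilin, had overlapping groups at 0.41 ± 0.35, and the cofilin phosphatase gene Ssh3 differed by 1.13 ± 0.78 close to background. The list's median was 0.00 with median centring and 0.07 after normexp, where that of all genes was 0.23.

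Genes that start or lengthen filaments did not lean one way, with 13 of 30 above 0 (53.4% over all genes) and a median of -0.02. The Arp2/3 subunit gene Arpc1a read 0.02 and 0.37 in control and -0.72 and -0.32 with cytochalasin D, a difference of -0.71 ± 0.30. Arpc1b, its alternative in the complex, read 1.59 on both controls and 1.79 and 2.30 with cytochalasin D, a difference of 0.45 ± 0.27. Wasf2, which activates the complex at the leading edge, differed by -1.05 ± 0.48 with overlapping groups, and its other probes by -1.57 ± 0.51 and -0.11 ± 0.43. The formin gene Fmnl3 differed by 0.67 ± 0.43, and by 0.087 without control replicate 1. Arpc1a had the smallest p of the list, 0.046 unadjusted and 1.0 adjusted by limma.

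Of the crosslinkers and adhesion scaffolds, 16 of 20 lay above 0 (53.4% over all genes), the median was 0.09 and 0 passed. Palld, palladin, had the smallest p, but it read -9.52 and -10.29 in control and -7.49 and -8.52 with cytochalasin D and was above background on 1 of the 4 arrays. Actn4, alpha-actinin-4, read 1.43 and 1.92 against 2.07 and 2.41, a difference of 0.56 ± 0.28 on a clearly measured probe. Fermt2, kindlin-2, an activator of integrins, was separated lower at -0.45 ± 0.28.

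The targets of YAP and TAZ, coactivators that also respond to the state of actin, had 10 of 18 above 0 and a median of 0.01. Of them 1 was separated higher and 5 lower (15.9% and 13.0% over all genes, with 53.4% above 0). Ccn1 read -1.26 and -0.40 in control and -0.45 and -1.20 with cytochalasin D, with both treated arrays inside the range of the controls. Ccn2 read -0.21 and -0.35 against -0.61 and -0.35, a difference of -0.20 ± 0.26. Tgfb2, a growth factor, was the member with the smallest p, at -6.32 and -6.62 against -7.12 and -7.72, a difference of -0.95 ± 0.29. This probe was above background on 2 control arrays and 1 cytochalasin D array, and its difference turned to 0.23 with normexp. A second probe of Tgfb2, above background on all 4 arrays, differed by -0.77 ± 0.43. Fjx1 and the partner factor Tead1 differed by -0.77 ± 0.44 and -0.40 ± 0.31, and the receptor gene Axl by 0.47 ± 0.39. With normexp the difference of Fjx1 turned to 0.076.

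Cells without working actin filaments fail to divide, and the cytokinesis genes were examined for that reason. Of 22 tested, 12 lay above 0, the median was 0.06, and 3 were separated higher and 3 lower. Over all genes 53.4% lay above 0, and 15.9% and 13.0% were separated higher and lower. Septin9, of the septin filaments at the division furrow, read 0.66 and 2.33 in control and 2.52 and 2.43 with cytochalasin D, so its difference of 0.98 ± 0.51 was 0.14 without control replicate 1. Cdk1, the kinase that starts mitosis, differed by -0.59 ± 0.34 and Incenp by 0.36 ± 0.31. A second probe of Cdk1, above background on all 4 arrays, differed by 0.67 ± 0.43. Another, above background on 2 of the 4, differed by -1.16 ± 0.69. The p53 targets had 11 of 20 above 0 and a median of 0.15, with 6 separated higher and 1 lower, beside the same shares over all genes. Bbc3, a killer gene of the BCL2 family, read -1.29 and -1.27 in control and -1.10 and -0.33 with cytochalasin D, a difference of 0.56 ± 0.38, while Cdkn1a, the cell-cycle inhibitor p21, differed by -0.12 ± 0.46. Plk2 and Phlda3 differed by 0.69 ± 0.44 and 0.40 ± 0.28, and by 0.15 and 0.13 without cytochalasin D replicate 2. Rrm2b differed by -0.54 ± 0.34, and by -0.17 without control replicate 1.

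The tubulins, building blocks of the other large filament system, had 11 of 12 tested genes above 0, with a median of 0.19. Of them 4 were separated higher and 0 lower (15.9% and 13.0% over all genes, with 53.4% above 0), and 0 passed. Tuba1b read 5.72 and 5.68 in control and 6.06 and 6.21 with cytochalasin D, a difference of 0.44 ± 0.26, and its second probe differed by 0.42 ± 0.32. Tubb3 read 0.62 and 0.59 against 0.71 and 1.48, a difference of 0.49 ± 0.31, and Tubb4b differed by 0.28 ± 0.26. Tuba1b lay at -0.07 with quantile normalization, and the list's median lay at 0.01 with median centring, where that of all genes lay at -0.15. The TRiC chaperonin and prefoldin, which fold actin and tubulin, had 6 of 15 above 0 (53.4% over all genes) and a median of -0.07. The prefoldin gene Pfdn1 read -1.74 and -3.48 against -3.61 and -5.13, a difference of -1.77 ± 0.66, whereas Pfdn4 and Cct5 differed by -0.59 ± 0.58 and 0.25 ± 0.30 with overlapping groups.

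Of the 12 melanin synthesis and melanosome matrix genes, 11 were well above background on all 4 arrays. Tyrp1, an enzyme of melanin synthesis, read 4.04 and 3.91 in control and 4.16 and 4.43 with cytochalasin D, a difference of 0.32 ± 0.27. Dct read 4.20 and 4.70 against 4.67 and 4.80, a difference of 0.29 ± 0.27, and Pmel, the fibre protein of the melanosome, 3.80 and 3.90 against 3.81 and 3.41, a difference of -0.24 ± 0.27. The brightest probe of Tyr, tyrosinase, differed by 0.22 ± 0.34 and its other probes by -0.77 ± 0.39 and -0.81 ± 0.43. Of the synthesis and matrix genes, 7 of 12 lay above 0 and the median was 0.06. In this list 2 were separated higher and 3 lower (15.9% and 13.0% over all genes, with 53.4% above 0). The copper transporter gene Atp7a and the receptor gene Gpr143 were separated lower at -0.47 ± 0.28 and -0.46 ± 0.29. Tpcn2 was separated lower at -0.97 ± 0.52, above background on 2 control arrays and 0 cytochalasin D arrays, and turned to 0.42 with normexp.

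Mitf, the master factor of the lineage, read 3.53 and 3.14 in control and 3.29 and 3.64 with cytochalasin D on its brightest probe, a difference of 0.13 ± 0.27. A second probe of Mitf read 0.69 on control replicate 1, -2.40 on control replicate 2 and -3.12 on both treated arrays, a difference of -2.26 ± 0.85. Its next probe differed by -2.05 ± 0.71, again with control replicate 1 far above the other 3 arrays. The lineage factors had 6 of 8 above 0 (53.4% over all genes), median 0.12. Sox10, another of them, read 1.56 and 2.34 against 2.33 and 2.68 at 0.56 ± 0.37. The melanocortin receptor gene Mc1r differed by 0.48 ± 0.53 on its brightest probe and by -0.86 ± 0.45 on the other.

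The list of melanosome transport and sorting genes had the highest median of the 23 lists, 0.26, with 9 of 12 above 0 and 0 that passed. Of its members 4 were separated higher and 1 lower (15.9% and 13.0% over all genes, with 53.4% above 0). The list mixes genes of transport along actin with genes of sorting and biogenesis. Its median was therefore not a measure of actin transport alone. Relative to the median of all genes the list's median lay 0.23 above, and between 0.03 and 0.33 above in the 17 alternatives. Rab27a, the GTPase that recruits the motor, differed by 0.38, its linker Mlph by 0.28 and the motor gene Myo5a by 0.06. The sorting genes Ap3b1 and Hps1 read 1.99 and 2.12 against 2.24 and 2.72, and -3.75 and -3.53 against -3.35 and -3.21, differences of 0.43 ± 0.27 and 0.36 ± 0.25. The other probe of Hps1 differed by -0.21 ± 0.38. Rab32, a GTPase of melanosome biogenesis, was separated lower at -0.51 ± 0.31.

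**Figure D4:**
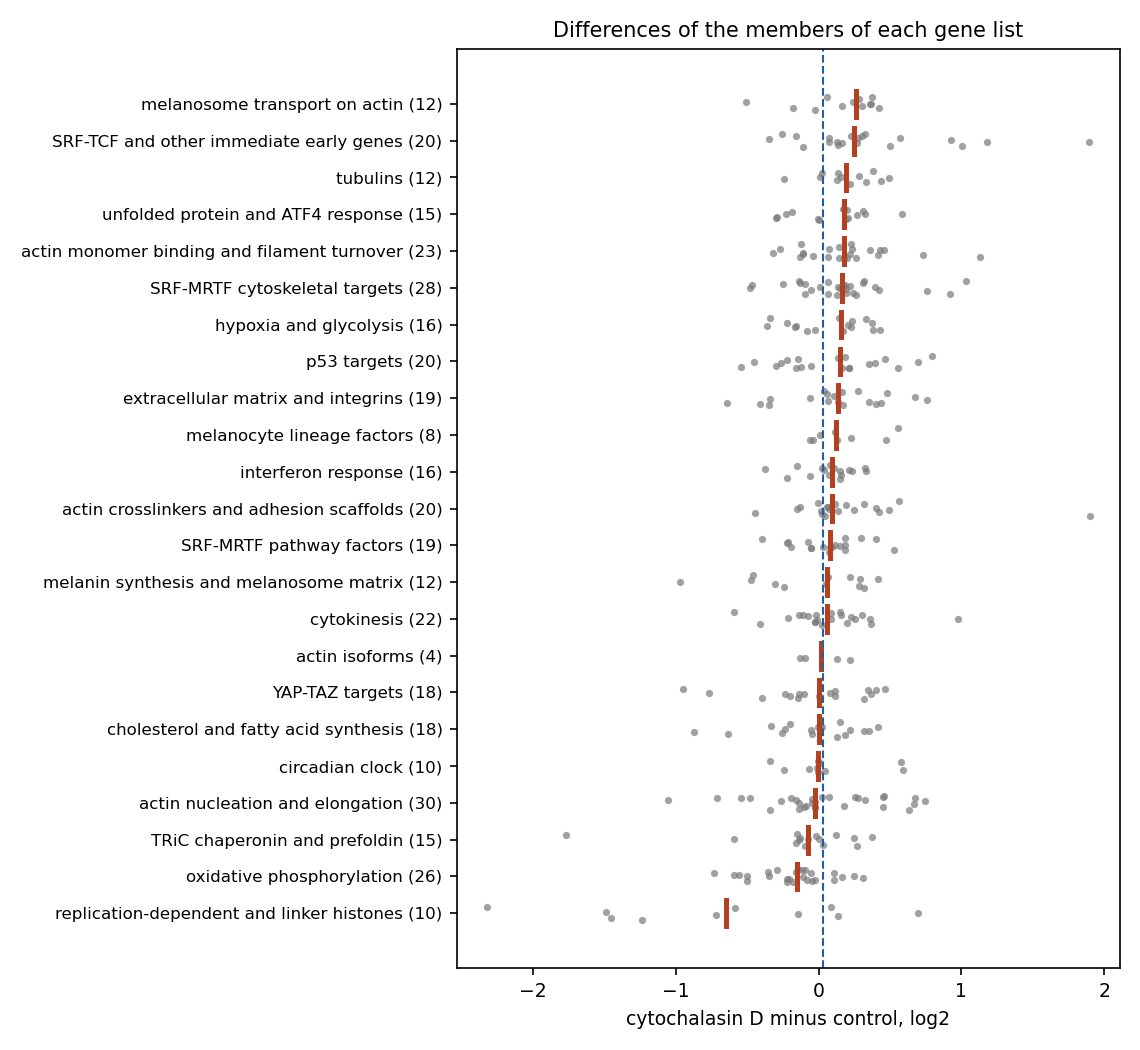
Difference between cytochalasin D and control (x axis, log2) for each tested member (grey points) of the 23 gene lists (y axis, number tested in brackets). Red bars are the list medians, from -0.65 for histones to 0.26 for the list labelled melanosome transport on actin, which also holds sorting genes. The blue dashed line is the median of all genes at 0.03. Members lie on both sides of 0 in every list.

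Stress and metabolism lists held no member that passed. Their counts above 0 stand beside 53.4% over all genes. The unfolded protein and ATF4 response had 10 of 15 above 0, median 0.18, with the chaperone gene Pdia4 at 0.59 ± 0.40 and Hspa5 at 0.18 ± 0.25. Cholesterol and fatty acid synthesis had 9 of 18 above 0 and its median was 0.00. Srebf2, a transcription factor of that pathway, differed by -0.87 ± 0.40, and by -0.28 without cytochalasin D replicate 2. Hypoxia and glycolysis had 9 of 16 above 0 and its median was 0.16, and Aldoa, a glycolytic enzyme, read 5.70 and 5.77 against 6.06 and 6.28, a difference of 0.43 ± 0.24 that was -0.04 with quantile normalization. Matrix and integrin genes had 14 of 19 above 0, median 0.13, with Lamb1 at 0.48 ± 0.36 and the matrix protein gene Thbs1 at -0.64 ± 0.35. The interferon response had 12 of 16 above 0, median 0.10, and Cxcl10 differed by -0.38 ± 0.31. The clock genes had 4 of 10 above 0, with Cry2 at 0.58 ± 0.33 and Per1 at 0.59 ± 0.78. The other probe of Cry2 differed by -0.32 ± 0.39.

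The lists with the lowest medians were those of histones and of oxidative phosphorylation. Of 10 histone genes tested, 7 were negative and the median was -0.65. Of them 0 were separated higher and 4 lower (15.9% and 13.0% over all genes, with 53.4% above 0). H2ac4 read -0.19 on control replicate 1, -4.08 on control replicate 2, -3.95 on cytochalasin D replicate 1 and -4.96 on cytochalasin D replicate 2, a difference of -2.32 ± 1.11 that rested on the first. H4c4 read -1.16 and -2.85 against -2.95 and -4.02, a difference of -1.48 ± 0.61. The histone median was 0.13 after normexp, where that of all genes was 0.23, and it lay below that of all genes in all 17 alternatives. Of 26 nuclear genes of oxidative phosphorylation, 21 were negative and the median was -0.15. Of them 1 was separated lower and 2 higher (13.0% and 15.9% over all genes, with 53.4% above 0). Ndufa1, a subunit of complex I, read 2.91 and 1.54 in control and 1.55 and 1.43 with cytochalasin D, and the list's median was 0.08 without control replicate 1 and -0.37 without control replicate 2.

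Some genes were above background in only 1 of the 2 groups. On both control arrays and on no cytochalasin D array were 485 genes, 179 of them with a symbol, and the reverse held for 15 genes, 1 with a symbol. Of the 485, 79 with a symbol had a bound over 1-fold and 5 a bound of at least 2-fold, and the largest was Spred2, an inhibitor of the ERK pathway, at least 3.08-fold lower. Spred2 read -5.33 and -6.91 in control and -7.89 and -9.42 with cytochalasin D. The embryonic globin gene Hbb-bh1, the sodium channel gene Scn3b and Gucy1b2 were at least 2.18-fold, 2.10-fold and 2.09-fold lower. Without control replicate 1 the measured log2 differences of Scn3b and Gucy1b2 were -0.77 and -0.53, smaller than these bounds. With normexp the differences of Hbb-bh1, Scn3b and Gucy1b2 turned to 0.13, 0.037 and 0.031, so their bounds hold only under the main background correction. The surfactant protein gene Sftpd was at least 1.74-fold higher. The bounds compare group means with the dimmest signal marked above background and leave out the spread between replicates. The smaller share of spots above background on the cytochalasin D arrays moves with this imbalance, and its part in the result was not tested.

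Against the SEMA3E arrays of the same labelled time, 1 of 18073 genes (0.00553%) passed by limma and 1986 (11.0%) reached an unadjusted p of 0.05, 407 higher (2.25%) and 1579 lower (8.74%) with cytochalasin D. The gene was Catsperg2, a subunit gene of a sperm calcium channel, which read -6.76 and -6.61 with SEMA3E and -9.92 and -9.79 with cytochalasin D (adjusted p = 0.0466). It was above background on no control or cytochalasin D array, and it did not pass with any 1 of the 4 control and cytochalasin D arrays left out. The median difference of all genes against SEMA3E at 8 h was -0.13. Negative-control spots had a median signal of 4.38 on SEMA3E 8 h replicate 2, 2.10 on replicate 1, and 1.95 and 1.58 with cytochalasin D. The part of that array in the split of 407 higher and 1579 lower genes was not tested. The cytochalasin D and SEMA3E 8 h differences share the control arrays, and their values for the same genes were 0.53 and 0.07 for Limk1, 0.87 and 0.29 for Cavin1, 1.08 and -0.05 for Plcb3, -1.46 and 0.40 for H1f4, and -0.96 and -0.34 for Rev1. For Ptgs1 they were 1.12 and 0.97, for Kcnh2 0.98 and 0.91, for Myh9 1.04 and 0.71, and for Cep295nl 0.64 and 1.63. These genes are examples and give no share of the named genes. The unfolded protein list had medians of 0.18 and 0.56.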

How the data were processed

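Total RNA of B16 cells was made into Cy3-labelled cRNA and hybridised to 1-colour Agilent mouse arrays, per the labels' protocols. The authors deposited scanner files whose processed signal is a linear intensity after background subtraction, not scaled between arrays, made with Agilent Feature Extraction 11.5.1.1 on an mm9 design, per the file headers. Control spots and outlier spots were left out, and log2 signals were scaled to each array's 75th percentile over 18687 probes. A probe was tested if above background on both arrays of at least 1 group, 24667 in all, and a gene took its brightest. Limma 3.58.1 in R 4.3.3 was fitted to all 8 arrays with 4 residual degrees of freedom, two-sided, with Benjamini-Hochberg adjustment. The median standard error was 0.34. Tested on simulated data, it called 0 of 50 genes put in at 2-fold, 16 at 4-fold, 33 at 8-fold and 41 at 16-fold. P-values measure the spread between these samples, which may be technical.

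Replicate numbers did not pair the samples, since deviations of same-numbered arrays correlated at -0.13. Named genes were, with separated groups and signal above background on all 4 arrays, the 12 higher and 12 lower with the smallest p and the 5 with the widest gap each way, then the 4 with the largest bound each way, the 4 with the smallest p of each of 23 lists, and a fixed set of actin, early and pigment genes. Some genes that the rule names are not reported here. Other members named and second probes were chosen after their values were seen. Members and lists were chosen with earlier results of these data known. Alternatives were each array left out, a replicate block, other scalings, background corrections, filters, probe rules and the deposited table. Of the probes, 27673 were named through RefSeq. Figures used matplotlib 3.10.9.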

Additional observations from a re-analysis of the deposited data

How the results depend on the processing

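Of 148 named genes under 13 alternatives that kept all arrays, 51 of 1906 differences turned sign, in 37 genes, and 1 passed the threshold (2310002L09Rik, 4.16 with median centring). The differences that turned sign were as follows. With averaging the probes they were Ghr -0.011, Mrtfb -0.0014, Mc1r -0.19, Zeb2 -0.022, Mitf -1.20, Srf 0.14, Tyr -0.45. With normexp they were Hbb-bh1 0.13, Scn3b 0.037, Gucy1b2 0.031, Acta2 0.45, Actg2 0.46, Limk2 0.45, Tgfb2 0.23, Fjx1 0.076, Rrm2b 0.28, Tpcn2 0.42, Nr1d1 0.44, Car9 0.050, H4c8 0.38, Srf 0.037, Fos 0.11, Cdkn1a 0.031, ND4 -0.041, ND6 0.054, Rn18s 0.10. With median centring they were Actg1 -0.048, Mitf -0.050, Hspa5 -9.8e-05, Bst2 -0.032, Vcl -0.12, Myl9 -0.0022, Ccn1 -0.17, Egr1 -0.051, ND4 -0.18. With normexp plus quantile normalization they were Actg2 0.00081, Tuba1b -0.29, Srf 0.036, Ccn1 -0.0025, Fos 0.016, ND4 -0.10. With the deposited table they were Cdk1 1.08, Zeb2 -0.016, Mitf -0.57, Cxcl10 2.01, Srf 0.15, Tyr -0.38, Pmel 1.66. With quantile normalization they were Tuba1b -0.074, Aldoa -0.036, ND4 -0.071. With 1 of the 4 arrays left out, 23 genes turned sign and ran over these ranges: Actg1 -0.028 to 0.29, Acta2 -0.40 to 0.13, Axl -0.077 to 1.01, Tuba1c -0.043 to 0.81, Cct5 -0.091 to 0.59, Zeb2 -0.022 to 0.47, Mitf -0.066 to 0.32, Mvd -0.076 to 0.91, Nr1d1 -0.93 to 0.25, Ankrd37 -0.68 to 0.00092, Itga5 -0.040 to 1.56, Itgav -0.0061 to 1.35, Bst2 -0.038 to 0.33, Srf -0.16 to 0.061, Vcl -0.48 to 0.60, Myl9 -0.022 to 0.38, Tpm1 -0.40 to 0.92, Ccn1 -0.42 to 0.43, Egr1 -0.049 to 0.30, Tyr -0.21 to 0.66, Cdkn1a -0.42 to 0.17, ND4 -0.046 to 0.049, ND6 -0.78 to 0.55. All genes had a median of 0.03, -0.15 with median centring and 0.23 after normexp or with no filter. Of 391 list medians under 17 alternatives 59 turned sign.

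Genes called were 0, and 0 to 1 with 1 array left out (Gm8675 without control replicate 1), 2 with median centring and 9 from the deposited table. Genes at an unadjusted p of 0.05 were 441, and 166 to 2050 with 1 array left out and 230 with median centring. Genes at least 2-fold apart with separated groups were 458, and 526 to 2208 with 1 array left out, 86 after normexp, 73 with quantile normalization added, 2442 with no filter, 195 with signal above background on all 4 arrays and 829 by the deposited table. The share of higher genes among those at that unadjusted p, 29.7%, was also 57.4% with no filter, 52.0% without control replicate 2, 40.7% with an intensity trend and 43.5% by the deposited table. Against SEMA3E at 8 h the 1 call became 0 with any 1 of the 4 arrays left out, 0 with quantile normalization, with normexp and quantile normalization, with no filter, with signal above background on all 4 arrays and with outlier spots kept, 7 with median centring and 13 by the deposited table, and with normexp or an intensity trend the 1 call was another transcript than Catsperg2. The cause was not tested, except for the 9 calls from the deposited table (under other observations).

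The replicate block gave 598 genes at an unadjusted p of 0.05, 0 calls against control and 0 against SEMA3E at 8 h, and it changed no other call. A crossed pairing, chosen after seeing the data, gave 512 genes, 0 calls against control and 0 against SEMA3E at 8 h. Slide as a block was not run because all arrays lay on 1 slide, and the fit of 4 arrays alone gives no value against SEMA3E.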

Other observations

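Transcripts of the mitochondrial genome were looked at after CYTB, one of them, appeared among the lower genes, so the group was chosen after its values were seen and gets no test. Of 13 protein-coding transcripts, 12 lay below 0 with a median of -0.46, where 53.4% of all genes lay above 0. Of the 13, 8 had both cytochalasin D arrays below both controls and 0 both above, beside 13.0% and 15.9% over all genes. CYTB, of complex III, read 3.04 and 2.86 in control and 2.11 and 1.78 with cytochalasin D. ND1, of complex I, read 0.77 and 0.43 against 0.10 and -0.29, and ATP6, of the ATP synthase, 3.24 and 3.11 against 2.91 and 2.36. COX1 and COX3 differed by -0.41 ± 0.30 and -0.46 ± 0.33, and ND4 by 0.00 ± 0.25. In the SEMA3E 8 h arrays the same transcripts had a median of 0.15 against the same controls. The largest of the 13 differences, -1.63 for ATP8, rested on control replicate 1, which read 0.80 against -2.04 on control replicate 2.

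The probes of 2 ribosomal RNAs, also chosen after their values were seen, were low on the cytochalasin D arrays. Rn18s read -6.26 and -6.86 in control and -7.64 and -9.38 with cytochalasin D, and Rs5-8s1 -5.74 and -6.19 against -8.11 and -7.27. On the SEMA3E 8 h arrays they read -3.69 and -4.22 on average. Rn18s was above background on 2 control and 0 cytochalasin D arrays, and Rs5-8s1 on 2 and 1. The treated readings therefore lay near the floor, and with normexp the difference of Rn18s was 0.10.

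The smallest adjusted p of the comparison, 0.193 by limma, belonged to the RIKEN transcript 2310002L09Rik, singled out after its values were seen. It read -10.54 on both controls, -6.05 and -6.36 with cytochalasin D and -9.16 on average with SEMA3E at 8 h, and was above background on both cytochalasin D arrays alone of the 4.

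The deposited table of values per gene name gave 9 calls where the scanner files gave 0, and its construction shows their source. Where some probes of a name were above background on an array and others not, 96.6% of 28928 values lay within 1% of the geometric mean of the probes above background on that array, and 0.13% within 1% of the mean of all its probes. A dim probe therefore entered the mean on some arrays and not on others. For Gnas, the G-protein subunit gene, the brightest probe had a signal of 15958 and 18126 on the controls and 16538 and 10130 on the cytochalasin D arrays, while the table held 453 and 417 against 16500 and 10100, with 2 probes above background on each control and 1 on each treated array. Def8 likewise had a difference of 5.02 in the table (adjusted p = 0.00344 by limma) and of 0.51 ± 0.27 on its brightest probe, and Morf4l2 5.31 in the table and -0.09 ± 0.31. In all 9, fewer probes were above background on the treated arrays, and the difference of the brightest probe lay between -0.25 and 0.51.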
